A study of Brassica oleracea with 12 samples.

Results

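The xylem and secondary wall marker genes *IRX5*, *IRX1*, *IRX9* and *XCP1*, were followed through the leaves of the variegated ornamental kale line 'JC007-2B', a double-haploid *Brassica oleracea* line whose mature leaves have a white center and a green margin. They are 4 of the 45325 genes of the deposited expression table and were chosen by name, with earlier results of these data known. Shares of all genes set beside them are therefore a description and not an independent test. The gene name column holds *IRX9* and *XCP1*. *IRX5* and *IRX1* are the older names of the cellulose synthases that the table lists as *CESA4* and *CESA8*, and these 2 were found by the *Arabidopsis* loci in their descriptions, *AT5G44030* and *AT4G18780*. Their gene models are *Bo7g066970* for *IRX5*, *Bo7g106250* for *IRX1*, *Bo4g030870* for *IRX9* and *Bo1g006530* for *XCP1*. All 4 were above 0 in each of the 12 libraries.

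The libraries form 4 groups of 3, all of the same line with no other allele or agent named. S1 was the green leaf stage, when leaves were fully green. S2 was the albino stage, reached after chilling, with white in the leaf center and only a little green left at the margin. In the paper, chlorophyll and carotenoid contents were lowest at S2. The paper also ties the variegated leaves to falling temperature, so exposure to cold is not particular to S2. Leaves of the variegated leaf stage were divided into their green margin, S3_S, and their center, S3_C, which was white. The tissue of S1 and S2 is labelled as leaves with the veins left out, whereas that of S3_S and S3_C is labelled as leaf margin and leaf center with no word on veins, so the handling of veins and the stage cannot be told apart between S1 or S2 on the one side and S3 on the other. Leaf ages, and whether a margin and a center library with the same number came from 1 plant, are not stated in the sources used here.

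Xylem vessels carry water through the veins of a leaf. As a vessel matures, it lays down a secondary wall of cellulose, xylan and lignin inside its primary wall, and then dies and empties. In *Arabidopsis*, the cellulose of this wall is made by a complex of CESA4 (IRX5), CESA7 (IRX3) and CESA8 (IRX1), and loss of any of them gives collapsed, irregular xylem, from which the IRX names come. IRX9 is a glycosyltransferase needed to elongate the xylan backbone. XCP1 is a papain-like cysteine protease of the vessel vacuole that takes part in clearing the dying cell. Leaf blade that holds fewer or smaller veins holds fewer such cells, and these genes are taken here as a readout of vein share. A vessel that has died and emptied no longer adds to this RNA. The readout therefore cannot tell vein share from how far vessel formation has gone. In RNA from bulk tissue, fewer cells of a type and less RNA per cell cannot be told apart.

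All 4 genes were lowest in the green margin, with each margin library below every library of the other groups. The share of all genes with this pattern was not counted. *XCP1* had the highest FPKM of them, followed by *IRX5* and *IRX1*, and *IRX9* was the lowest in each of the 4 groups by its mean. FPKM (fragments per kilobase of transcript, scaled to the sequencing depth of the library) is corrected for transcript length, so that levels of different genes can be set side by side.

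*IRX5* had 2.47, 2.55 and 2.06 FPKM in the S1 libraries, 2.33, 1.41 and 1.89 FPKM in the S2 libraries, 0.924, 0.842 and 0.685 FPKM in the S3_S libraries and 3.98, 2.95 and 2.97 FPKM in the S3_C libraries. Its 3 margin libraries lay below each of the other 9 libraries, and its 3 center libraries lay above each of the other 9. The share of all genes with the center above every other library was not counted either. By group mean the order was S3_S (0.817 ± 0.122 FPKM, SD, n = 3), S2 (1.88 ± 0.462), S1 (2.36 ± 0.261) and S3_C (3.30 ± 0.587), and of the neighbours in this order only S2 and S1 overlapped.

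*IRX1* had 1.93, 2.24 and 0.941 FPKM in S1, 1.42, 1.03 and 2.03 FPKM in S2, 0.524, 0.203 and 0.399 FPKM in S3_S and 2.98, 2.38 and 2.53 FPKM in S3_C. The order of the groups was that of *IRX5*, from S3_S (0.375 ± 0.162 FPKM, SD, n = 3) over S2 (1.49 ± 0.501) and S1 (1.70 ± 0.680) to S3_C (2.63 ± 0.310), and again only S2 and S1 overlapped.

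*IRX9* had 1.15, 0.713 and 0.685 FPKM in S1, 0.894, 0.445 and 0.683 FPKM in S2, 0.166, 0.365 and 0.170 FPKM in S3_S and 2.01, 1.57 and 0.786 FPKM in S3_C. Its mean was 0.234 ± 0.114 FPKM (SD, n = 3) in S3_S, 0.674 ± 0.224 in S2, 0.850 ± 0.262 in S1 and 1.46 ± 0.622 in S3_C. The margin libraries were below all others, but the third S3_C library lay within the range of S1 and S2, so that S2, S1 and S3_C could not be ranked.

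*XCP1* had 7.50, 5.58 and 3.87 FPKM in S1, 6.49, 4.62 and 8.18 FPKM in S2, 2.20, 0.847 and 0.971 FPKM in S3_S and 6.56, 7.54 and 4.16 FPKM in S3_C. The margin (1.34 ± 0.746 FPKM, SD, n = 3) was again below all other libraries. In contrast to *IRX5* and *IRX1*, the protease gene did not stand higher in the center (6.08 ± 1.74) than in S1 (5.65 ± 1.82) or S2 (6.43 ± 1.78), and these 3 groups overlapped.

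**Figure D1:**
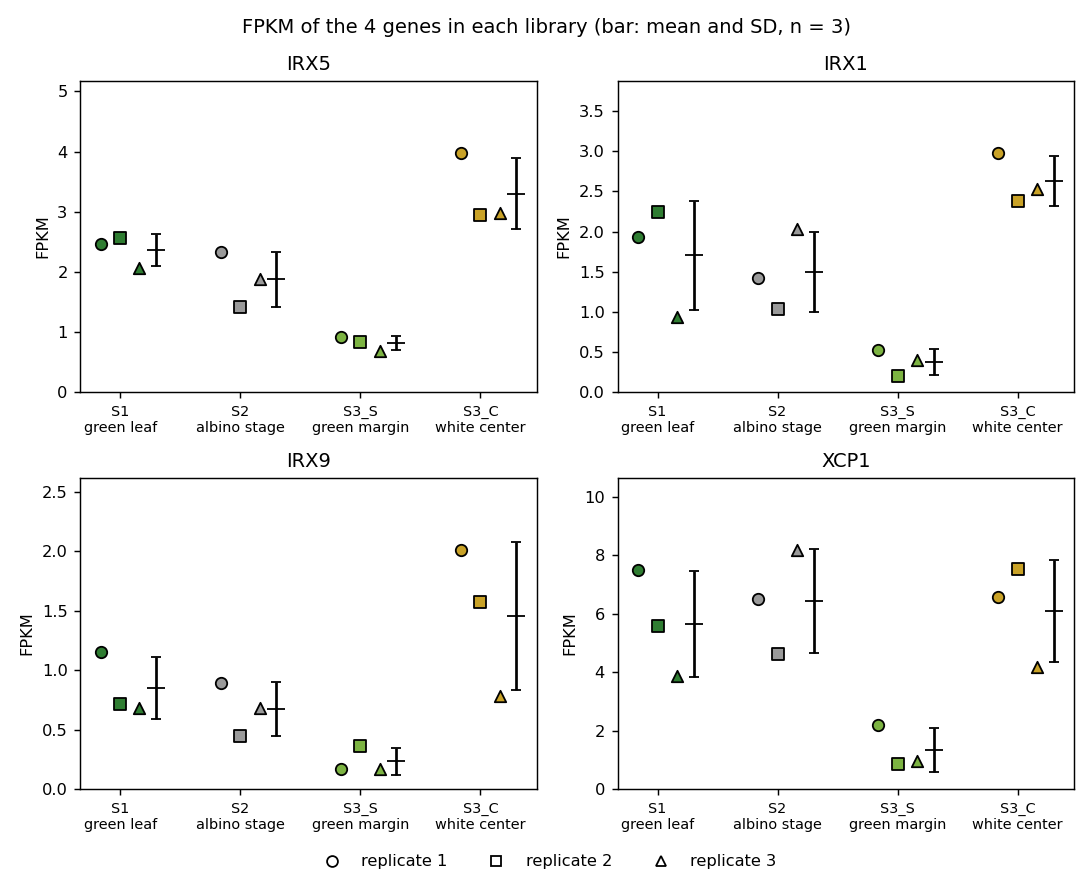
FPKM (vertical axis, from 0) of *IRX5*, *IRX1*, *IRX9* and *XCP1* in the 3 libraries of S1, S2, S3_S and S3_C, with 1 symbol per replicate number and a bar for the mean and SD (n = 3). The margin libraries are the lowest in each panel (*IRX5* at most 0.924 FPKM, *XCP1* at most 2.20 FPKM), and the center stands above all other groups for *IRX5* and *IRX1* only.

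The libraries themselves were of similar depth. Read counts were not analysed here, but the steps between low FPKM of genes with 1 transcript gave a depth relative to the first S1 library of 0.902 to 1.35, with 0.902 to 1.203 in S3_S and 1.17 to 1.35 in S3_C. How many fragments stand behind a value of the 4 genes is unknown, and values such as the 0.166 FPKM of *IRX9* in a margin library may rest on few fragments. Between 33912 and 36992 genes were above 0 in a library. The scale of FPKM differed between groups. Among genes that averaged 1 FPKM or more, the median change on the log2 scale was 0.32 for S3_C over S3_S, 0.44 for S2 over S1, 0.29 for S3_S over S1 and 0.14 for S3_C over S2. It lay within 0.03 of 0 in each of these after median-of-ratios scaling, which assumes that most genes do not change.

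The first comparison, that of the study, asked what distinguishes the white center from the green margin. The center had 4.04 times the mean FPKM of *IRX5* in the margin, 7.01 times that of *IRX1*, 6.23 times that of *IRX9* and 4.55 times that of *XCP1*. *IRX5*, *IRX1* and *XCP1* were called higher in S3_C, that is, they passed the threshold of the study (p below 0.05 before adjustment and a log2 fold change beyond 1 in either direction), here on log2(FPKM + 1), a scale that understates the change of genes with low FPKM. Of all 42625 genes tested, 7.88% were called and 5.20% were called higher in S3_C. On the log2 scale the change was 1.24 ± 0.22 (standard error) for *IRX5*, 1.40 ± 0.20 for *IRX1*, 0.96 ± 0.23 for *IRX9* and 1.61 ± 0.33 for *XCP1*. The limma p-values adjusted over all genes were 0.0456, 0.0306, 0.0714 and 0.0559, so that 2 of the 4 genes were under 0.05, as were 3.75% of all genes tested. The median of the 4 was 1.32, beside 0.14 for all genes tested. The center libraries did not overlap with the margin libraries for any of the 4 genes, each higher in the center, which was the case for 24.4% of all genes tested. With 3 libraries a side, the smallest p of a two-sided exact permutation test is 0.1, which each of the 4 genes reached.

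These calls depended on the scale to some extent. After median-of-ratios scaling the log2 fold changes were 0.99 for *IRX5*, 1.198 for *IRX1*, 0.81 for *IRX9* and 1.33 for *XCP1*, all still above the median of all genes at 0.01, and *IRX5* was no longer called because it fell just under 1. In a linear model that adjusts for library size in the manner of Ballgown, only *IRX1* (1.87 ± 0.45, standard error) was called. *IRX5* (0.89 ± 0.49) and *XCP1* (1.90 ± 1.43) were not, and *IRX9* turned to −0.21 ± 0.74. The standard errors of *XCP1* and *IRX9* are wide, so the sign of *IRX9* is not settled by this model. In it 0 genes of the whole table had an adjusted p under 0.05. In the main fit an adjusted p under 0.05 was reached by *IRX5* and *IRX1*, and by none of the 4 when any 1 of the 3 S3_S libraries or the first or second S3_C library was left out. Without the third S3_C library, limma gave 0.0487 for *IRX1* and 0.0468 for *IRX9*, but 0.0617 for *IRX5*. All 4 were under 0.05 in the fit of all 12 libraries, and 3 with a pseudocount of 0.1. The filter at a mean of 1 FPKM left 3 genes with a value, all 3 under 0.05. Over the whole table, the 1598 genes under 0.05 fell to between 2 and 1092 with single libraries left out. With the replicate number as a block, none of the 4 was under 0.05 (adjusted p = 0.0731 for *IRX5* and 0.0609 for *IRX1* from limma).

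The second comparison set the albino stage against the green leaf stage, both labelled as without veins. None of the 4 genes was called, and 0 of the 4 had an unadjusted p under 0.05 in limma on FPKM as deposited, where 9.06% of the 42771 genes tested were called. After quantile normalization, *IRX5* (−0.65, unadjusted p = 0.0356 from limma) and *IRX9* (−0.47, unadjusted p = 0.0453 from limma) were under 0.05, both lower in S2 and neither called. In the linear model adjusted for library size 1 of the 4 was called, *IRX5*, with a log2 fold change of −1.06. The log2 fold change of S2 over S1 in limma was −0.23 for *IRX5* (95% interval −0.91 to 0.44), −0.10 for *IRX1* (−0.92 to 0.71), −0.14 for *IRX9* (−0.65 to 0.36) and 0.17 for *XCP1* (−0.58 to 0.91). These intervals leave room for changes of close to 1 on this scale in *IRX5*, *IRX1* and *XCP1*. The median of the 4 was −0.12, beside 0.21 for all genes tested. After median-of-ratios scaling it was −0.40, and *XCP1* turned to −0.29.

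The third comparison set the green margin of variegated leaves against green leaves of S1. S1 had 2.89 times the mean FPKM of *IRX5* in the margin, 4.54 times that of *IRX1*, 3.64 times that of *IRX9* and 4.22 times that of *XCP1*. Of the 4 genes only *XCP1* was called lower in the margin, by −1.52 ± 0.34 (log2 scale, standard error), with an adjusted p = 0.0389 from limma, and it was the 1 of the 4 under 0.05, as were 14.9% of all genes tested. After median-of-ratios scaling or quantile normalization all 4 were under 0.05. *XCP1* was not (adjusted p = 0.0585 to 0.117 from limma) when any 1 library other than the first S3_S library was left out, and the 6308 genes behind the share ranged from 0 to 9129. The background was high in this comparison, with 19.2% of the 42391 genes tested called and 6.72% called lower. *IRX5*, *IRX1* and *IRX9* had unadjusted p-values under 0.05 but log2 fold changes of −0.89, −0.95 and −0.58, short of the threshold (adjusted p = 0.0502, 0.0588 and 0.0530 from limma). The margin libraries lay below the S1 libraries for all 4 genes, as they did for 13.2% of the genes tested. After median-of-ratios scaling 3 of the 4 genes were called, *IRX5* (−1.07), *IRX1* (−1.08) and *XCP1* (−1.74), and with a pseudocount of 0.1 all 4. In the linear model adjusted for library size *IRX5* (−1.18) was called in place of *XCP1*. The call of *IRX1* was also gained without the third S1 library (−1.17) or the first S3_S library (−1.03).

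The fourth comparison set the white center against the albino stage. None of the 4 genes was called, and 0 of the 4 had an unadjusted p under 0.05 in the main limma fit. There 2.09% of the 43059 genes tested were called, and the linear model with the covariate called 0 of the 4. In other limma fits *IRX5* was under 0.05 with all 12 libraries (unadjusted p = 0.0199) and with the filter at a mean of 1 FPKM (0.0494). *IRX9* was under 0.05 with all 12 libraries (0.0300) and without the third S3_C library (0.0320). Neither gene was called in these fits. The libraries of S3_C and S2 deviate together by replicate number, and with this number as a block 1536 in place of 898 genes were called over the whole table, still with none of the 4. *IRX5*, *IRX1* and *IRX9* had log2 fold changes of 0.58 (95% interval −0.08 to 1.25), 0.56 (−0.12 to 1.23) and 0.53 (−0.13 to 1.19) for S3_C over S2. *XCP1* was at −0.07 (−0.79 to 0.65). For *IRX5* and *IRX1* the center libraries all lay above the S2 libraries, as for 10.6% of all genes tested.

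Each group enters 2 of these comparisons, so they are not independent of each other. Whether the difference between center and margin was larger than that between S2 and S1 was tested in a fit of all 12 libraries. The difference of the differences was 1.47 for *IRX5* (95% interval 0.81 to 2.13), 1.51 for *IRX1* (0.71 to 2.31), 1.11 for *IRX9* (0.44 to 1.77) and 1.44 for *XCP1* (0.45 to 2.44). All 4 were called, where 6.43% of the 45325 genes were called and 2.43% were called in this direction. After adjustment limma gave p-values of 0.130, 0.175, 0.215 and 0.272, so 0 of the 4 held after adjustment over all genes, where 0.0287% of all genes did. The same value states by how much more the center lay above S2 than the margin lay above S1.

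**Figure D2:**
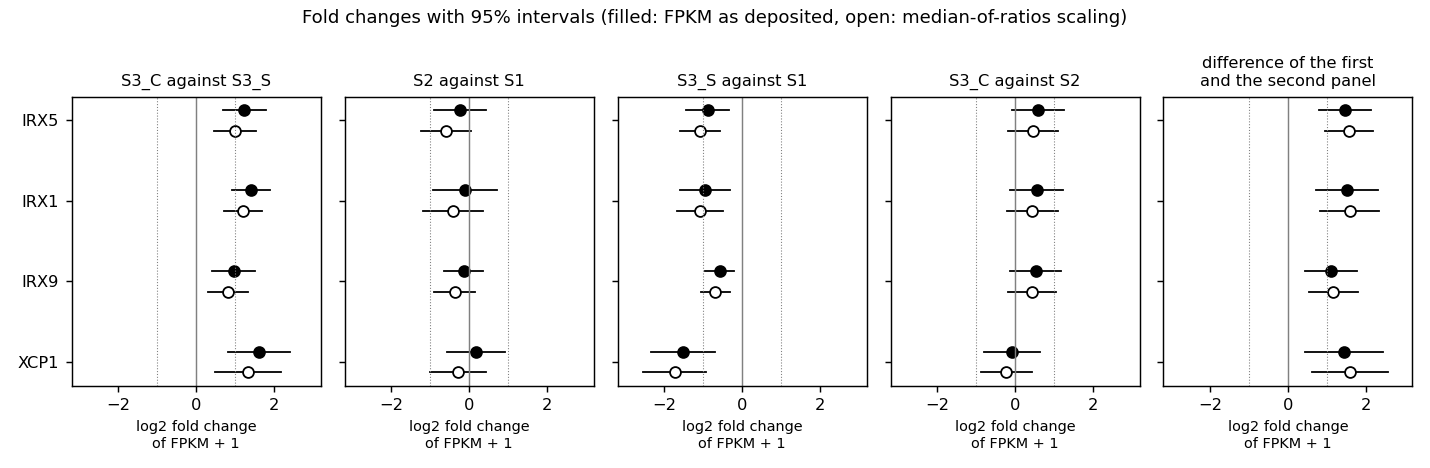
Log2 fold changes on log2(FPKM + 1) (horizontal axis) of the 4 genes in the 4 comparisons and the difference of the first and the second, with 95% intervals from limma, for FPKM as deposited (filled) and after median-of-ratios scaling (open). Dotted lines mark −1 and 1, and *IRX1* stands at 1.40 for S3_C against S3_S, at −0.10 for S2 against S1 and at −0.95 for S3_S against S1.

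The place of a gene among all genes of its library does not depend on a scaling between libraries. By this measure *IRX5* stood at the 44.8th to 47.9th percentile in the margin, the 52.4th to 56.5th in S2, the 58.2nd to 62.5th in the center and the 63.0th to 64.1st in S1. The margin was thus lowest by rank as well, whereas the center and S1 changed places. *IRX1* was at the 33.6th to 41.7th percentile in the margin and the 55.2nd to 58.2nd in the center, the latter within the range of S1 (52.7 to 61.6). *XCP1* was at the 45.9th to 58.9th percentile in the margin, the 64.1st to 73.6th in the center and the 72.4th to 82.1st in S1. *IRX9* was at the 31.99th to 38.1st in the margin and the 42.3rd to 53.0th in the center. The lower level in the margin was therefore found by both measures, and the higher level of *IRX5* and *IRX1* in the center than in S1 was found by FPKM only.

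**Figure D3:**
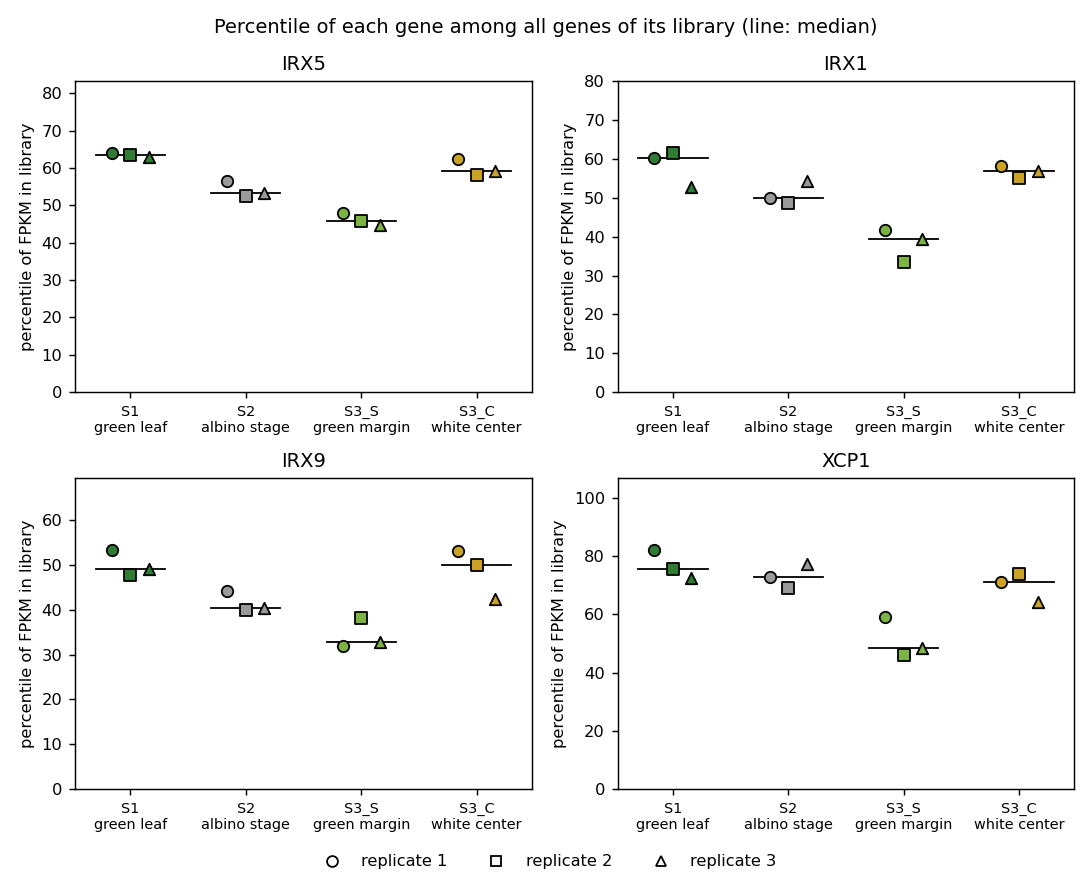
Percentile of the FPKM of each gene among all genes of its library (vertical axis, from 0), by group, with 1 symbol per replicate number and a line for the median. The margin is lowest for all 4 genes, and for *IRX5* the S1 libraries (63.0 to 64.1) stand above the center libraries (58.2 to 62.5).

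Ratios between the 4 genes within a library do not depend on its scaling. *IRX1* had 0.241 to 0.583 times the FPKM of *IRX5* in the margin libraries and 0.749 to 0.852 times in the center libraries, with 0.456 to 1.07 in S1 and S2. The ratio was lower in each margin library than in each center library, but the lowest S1 ratio (0.456) lay within the range of the margin. How often ratios of other genes separate in this way was not tested. *IRX9* had 0.180 to 0.434 times the FPKM of *IRX5* in the margin and 0.264 to 0.532 times in the center, which overlapped. The ratio of *XCP1* to *IRX5* was 1.01 to 2.38 in the margin, 1.40 to 2.55 in the center, 1.88 to 3.04 in S1 and 2.78 to 4.34 in S2, so that S2 had relatively more of the protease gene than the center. Over the 12 libraries, the Pearson correlation of log2(FPKM + 1) was 0.94 between *IRX5* and *IRX1*, 0.92 between *IRX5* and *IRX9* and 0.75 between *IRX9* and *XCP1*, the lowest of the 6 pairs. The points share the scaling of their library.

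Other genes of secondary wall formation were taken from lists of *Arabidopsis* loci, of which the descriptions in the table match few (28 of 115 loci over all lists, the 4 genes included). Among these, the phloem gene *SEOR1* was matched only as the best protein match of a row projected from another locus. *IRX3*, the third subunit of the cellulose synthase complex, was not among those matched. Besides the 4, 18 genes of cellulose, xylan, wall assembly, xylem cell death, transcriptional control and monolignol synthesis were found. Of these, 3 were called higher in S3_C than in S3_S and 0 lower, beside 5.20% of all genes called higher, and the median log2 fold change was 0.42, beside 0.14 for all genes tested. After median-of-ratios scaling 1 was called, *IRX14*, and the median was 0.23, beside 0.01.

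The 3 called were *IRX14*, *KNAT7* and *4CL1*. *IRX14* encodes another glycosyltransferase of xylan elongation and was at 11.4, 13.3 and 12.9 FPKM in S3_C and 3.04, 6.20 and 2.12 FPKM in S3_S (up by 1.59 on the log2 scale, with an adjusted p = 0.0555 from limma). *KNAT7* (*IRX11*), a homeobox regulator of secondary wall deposition, had 11.2, 7.61 and 9.74 FPKM in S3_C and 4.21, 3.44 and 3.96 FPKM in S3_S (log2 fold change 1.0999, adjusted p = 0.0417 from limma). *4CL1*, an enzyme at the entry of lignin precursor synthesis, differed by 1.35 on the log2 scale (adjusted p = 0.116 from limma). *CCR1* (*IRX4*), which commits precursors to monolignols, came close with 0.996 on the log2 scale (adjusted p = 0.0402 from limma). It was at 23.6, 19.6 and 22.1 FPKM in S3_C and 12.7, 8.78 and 9.99 FPKM in S3_S, and several other rows of the table also bear the name *CCR1*. *CAD4*, which makes the last reduction to monolignols, differed little between center and margin, with 27.8 to 35.0 FPKM and 25.7 to 29.6 FPKM.

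Among the less abundant genes, *XSP1*, a xylem serine protease, was at 0.402 to 0.709 FPKM in S3_C and 0.0383 to 0.0954 FPKM in S3_S without overlap, but with a log2 fold change of 0.53 on this scale. *LAC11*, a laccase that polymerizes lignin, was at 0.898 to 1.60 FPKM and 0.0685 to 0.570 FPKM. *VND5*, a NAC factor that switches on vessel formation, was at 0.257 to 1.09 FPKM and 0 to 0.0435 FPKM. In all, 10 of the 18 genes had each center library above each margin library and 0 the reverse, beside 24.4% of all genes tested with the center higher in this way. *TED7* was listed at 0 in 11 of the 12 libraries, and *IRX15*, *MYB52* and *MYB63* stayed below 0.3 FPKM in all libraries, so nothing can be said about them at this depth.

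**Figure D4:**
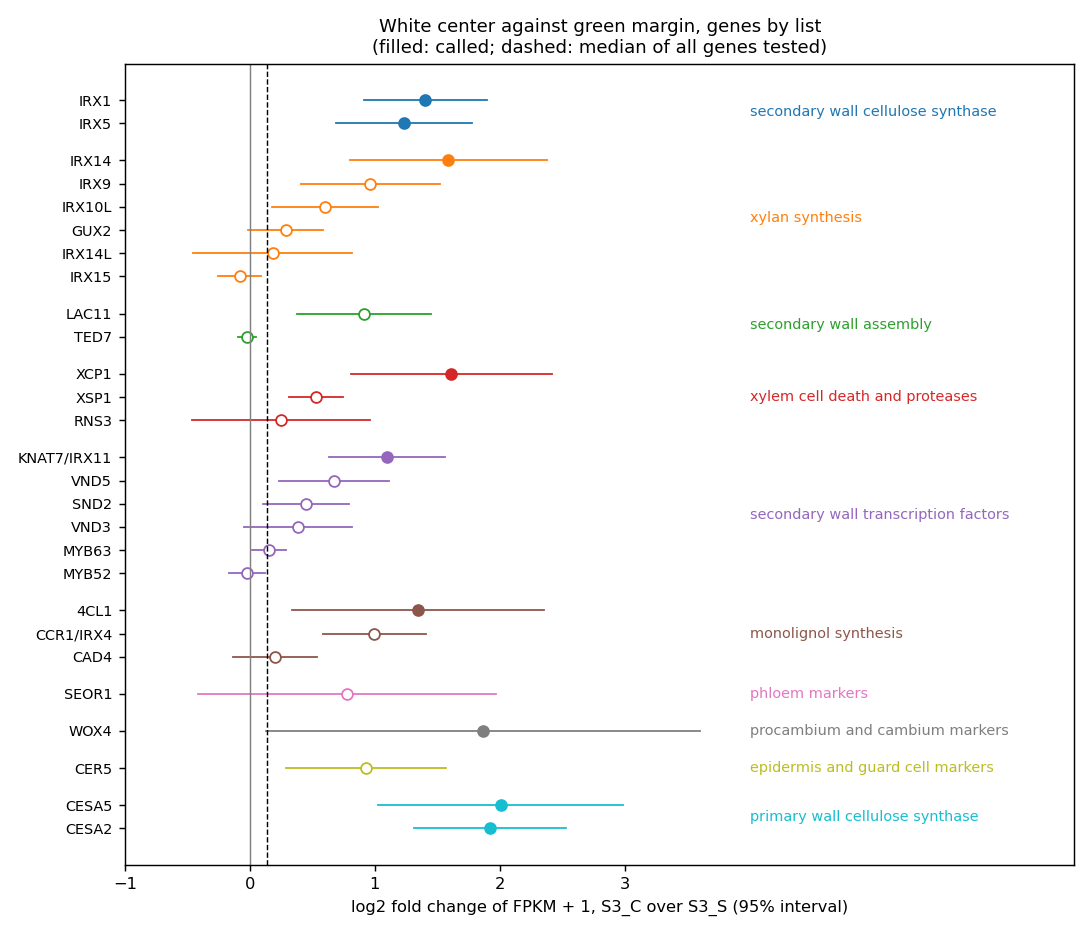
Log2 fold change of S3_C over S3_S on log2(FPKM + 1) (horizontal axis, with 95% intervals from limma) for the genes matched from each list, with the mesophyll marker left out because it lies at −9.30. Filled points are called, and the dashed line is the median of all genes tested (0.14). The row shown as *SEOR1* is projected from *AT1G67790*. *IRX5* (1.24), *IRX1* (1.40), *IRX14* (1.59) and *XCP1* (1.61) stand on the right, as do the primary wall genes *CESA2* (1.92) and *CESA5* (2.01).

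Not all genes of these lists followed the 4. *IRX10L*, a xylan synthase also active in primary walls, was called higher in S2 than in S1 (log2 fold change 1.33, adjusted p = 0.108 from limma), a call that was lost at 0.85 after median-of-ratios scaling. *RNS3*, a ribonuclease of senescing and dying cells whose row also covers a second gene, was at 2.60, 5.70 and 4.67 FPKM in the margin and 1.07, 0.456 and 0.280 FPKM in S1. It was called higher in S3_S than in S1, by 1.72 (adjusted p = 0.0324 from limma), the opposite direction to *XCP1*. Over the 18 genes, 1 was called higher and 2 lower in S3_S than in S1, the latter being *4CL1* and *CCR1*, where 19.2% of all genes were called. In S2 against S1, 2 of 17 tested were called higher and 0 lower, where 9.06% of all genes were called, and after median-of-ratios scaling 0 were called. Of the 16 tested in S3_C against S2, 0 were called in limma.

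Cellulose synthases of the primary wall, laid down by growing cells of all kinds, were also higher in the center. *CESA2* was at 9.49, 12.8 and 9.61 FPKM in S3_C and 1.99, 2.93 and 1.39 FPKM in S3_S (log2 fold change 1.92, adjusted p = 0.0266 from limma). *CESA5* was at 17.0, 15.1 and 6.02 FPKM in S3_C and 2.20, 2.79 and 1.58 FPKM in S3_S (log2 fold change 2.01, adjusted p = 0.0537 from limma). These were the only 2 of 5 loci matched, and both were called. They were lower in the margin than in S1 as well. The median log2 fold change of the 2 in S3_S against S1 was −1.34, beside −0.92 for the 4 genes. There 1 of the 2 was called lower, where 6.72% of all genes were called lower. The FPKM of *IRX5* and *IRX1* together was 0.183 to 0.364 times that of *CESA2* and *CESA5* in the margin and 0.191 to 0.352 times in the center, an almost complete overlap. In S2 the ratio was 0.0567 to 0.167, below all libraries of the other groups. *CESA5* stood at 29.8, 38.03 and 12.9 FPKM there.

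Markers of other leaf cell types that could differ between the dissected parts were matched for 1 locus each. *WOX4*, a marker of procambium and cambium (1 of 10 loci), was at 7.53, 9.74 and 0.797 FPKM in S3_C, 0.929, 0.483 and 0.190 FPKM in S3_S, 2.36 to 3.79 FPKM in S1 and 0.831 to 4.59 FPKM in S2. It was called higher in S3_C than in S3_S, by 1.87 (adjusted p = 0.173 from limma), with the third center library inside the margin's range, and it was not called after median-of-ratios scaling (1.64). The row taken for *SEOR1*, a sieve element protein of the phloem (1 of 9 loci), is projected from another locus, *AT1G67790*. Its description names the locus of *SEOR1* only as the best protein match, so the row may be a relative. This row was at 2.09 to 3.89 FPKM in S3_C and 0.241 to 3.10 FPKM in S3_S with overlap (log2 fold change 0.78). *CER5*, a wax exporter of the epidermis (1 of 9 loci), was at 60.6 to 115 FPKM in S3_C and 36.7 to 46.0 FPKM in S3_S (log2 fold change 0.93). The carbonic anhydrase gene *CA1*, abundant in mesophyll (1 of 10 loci), was at 0.447 to 0.649 FPKM in S3_C and 343 to 2022 FPKM in S3_S. It was at 172 to 3652 FPKM in S1 and 72.9 to 490 FPKM in S2. In S3_S against S1, *WOX4* was called lower (−1.43 on the log2 scale). The row taken for *SEOR1* (−0.03), *CER5* (0.42) and *CA1* (0.41) were not called there. No marker in these lists was at 0 in a whole group. Their part in the levels of the 4 genes was not tested.

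Xylem genes were detected in the libraries of S1 and S2, which are labelled as leaves with the veins left out. How far veins were left out was not tested, and the stage differs from that of S3 as well. In S1 *IRX5* had 2.06 to 2.55 FPKM, *IRX1* 0.941 to 2.24 FPKM and *XCP1* 3.87 to 7.50 FPKM, all above the margin libraries, for which no removal of veins is stated. The sum of the 4 genes was 7.56 to 13.1 FPKM in S1, 7.51 to 12.8 in S2, 2.22 to 3.81 in S3_S and 10.5 to 15.5 in S3_C. The sums of S1 and S2 overlapped with those of the center and not with those of the margin. *XCP1* has the highest FPKM of the 4 and weighs most in the sum, whereas for *IRX5* and *IRX1* each center library lay above each S1 and S2 library. For S3_C over S2 this was so in 10.6% of all genes tested, and for S3_C over S1 the share was not counted.

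Genes whose pattern was most like that of each of the 4 were sought among 25071 other genes that averaged 1 FPKM or more, by the Pearson correlation of log2(FPKM + 1) over the 12 libraries. The 5 highest for each gave 19 different genes with correlations of 0.92 to 0.99. Only 4 of the 19 carry a description. The nearest to *IRX1* was an assembled gene with no name (r = 0.99), at 8.29, 6.68 and 5.68 FPKM in S3_C and 1.09, 0.507 and 0.828 FPKM in S3_S. *Bo5g113800*, described as a glycosyl hydrolase family protein, also followed *IRX1* (r = 0.95), and so did *Bo2g095460*, described as a leucine-rich repeat protein kinase. *Bo3g066570* was among the nearest of both *IRX5* (r = 0.96) and *IRX9* (r = 0.94), and *ATKP1*, a kinesin-like protein, of *IRX9* (r = 0.94). *Bo7g089510*, of the NPH3 family of phototropic response proteins, followed *IRX5* (r = 0.94). The nearest to *XCP1* was *Bo9g177260* (r = 0.97), at 0.278 to 0.759 FPKM in the margin and 1.73 to 3.31 FPKM in the other 9 libraries.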

How the data were processed

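Poly(A) RNA of 12 leaf libraries was sequenced as paired ends. The authors aligned the reads with HISAT (HISAT2 2.0 in the submitters' processing notes), assembled transcripts with StringTie (1.3.0 in the same notes) and deposited FPKM per gene. Near-identical copies can share reads, and strand use is not given in the sources used here. The values of *IRX1* and *XCP1* each combine 1 reference and 1 assembled transcript.

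Groups and replicate numbers came from the sample titles. Separate plants are not stated for S1 and S2, so p-values there measure the spread between libraries. Genes above 0 in at least 1 library compared were fitted with limma 3.58.1 (R 4.3.3, eBayes with a trend) on log2(FPKM + 1), without a block, with Benjamini-Hochberg adjustment over all genes tested. Ballgown, the tool of the study, was replaced by a linear model with its covariate as an alternative. Further alternatives were a pseudocount of 0.1, a filter at a mean of 1 FPKM, scaling by median of ratios, quantile normalization, a block for the replicate number, a fit of all 12 libraries together, and leaving out each library in turn. The fits were tested on simulated data with larger changes than those of the 4 genes. The changed genes had higher levels than *IRX5*, *IRX1* and *IRX9*, so recovery at such levels was not tested.

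Replicate numbers were taken to pair libraries if deviations from the group means correlated by over 0.1 in every pair. That was so for S3_C and S2 (0.206 to 0.474) and not for S3_C and S3_S (0.0968 to 0.421), S2 and S1 (−0.355 to 0.182) or S3_S and S1 (−0.175 to 0.0208) over the genes tested. Over genes with a mean of 1 FPKM or more, S3_C and S3_S also met it (0.113 to 0.467), so their pairing is uncertain and the blocked values stand beside that comparison.

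The members and lists were chosen with earlier results of these data known. Named are the 4 genes, some of the 5 genes most correlated with each, and at most 4 called genes per list and comparison with the largest changes. The uncalled list genes and markers were named after their values were seen.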

Additional observations from a re-analysis of the deposited data

Results flagged for a closer look

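The difference between S3_C and S3_S exceeded that between S2 and S1 for each of the 4 genes at the threshold of the study in limma. The difference of the 2 log2 fold changes was 1.47 for *IRX5*, 1.51 for *IRX1*, 1.11 for *IRX9* and 1.44 for *XCP1*, beside −0.02 as the median of all 45325 genes. At the same threshold 2.43% of all genes were called in this direction. No adjusted p was under 0.05 (0.130 to 0.272 from limma), and without the first S1 library or the first S3_C library *IRX9* was no longer called, with 0.99 and 0.94.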

How the results depend on the processing

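Of 276 values of a gene in a comparison under an alternative, 267 kept the direction and 255 the call. *IRX9* has no value under the filter on a mean of 1 FPKM except in S3_C against S2. The number of the 4 genes called in S3_C against S3_S was 3, and 1 (*IRX1*) in the linear model with the covariate, where *IRX9* turned to −0.21 ± 0.74 (standard error). It was 4 with a pseudocount of 0.1, 2 after median-of-ratios scaling, 2 after quantile normalization and 3 to 4 with single libraries left out. After quantile normalization *IRX5* (0.96) was not called, and 0 of the 4 had an adjusted p under 0.05 from limma. In S2 against S1 the number called was 0, and 1 in the linear model with the covariate. There *XCP1* turned to −0.29 after median-of-ratios scaling, −0.29 after quantile normalization and −1.27 in that model. With single libraries left out *XCP1* ranged from −0.0381 (without the third S1 library) to 0.36 and *IRX1* from −0.33 to 0.0452 (without the second S1 library), with 0.03 without the second S2 library. In S3_S against S1 it was 1, but 4 with a pseudocount of 0.1, 3 after median-of-ratios scaling, 3 after quantile normalization and 1 to 2 with single libraries left out. In S3_C against S2 it was 0 throughout, and *XCP1* ranged from −0.26 to 0.14 with single libraries left out, above 0 when the third library of S2 (0.09) or of S3_C (0.14) was dropped. The cause of these changes was not tested. The replicate block changed no call of the 4 genes. In S3_C against S3_S it left 3 called, with adjusted p-values of 0.0609 to 0.0731 from limma, and none of the 4 under 0.05.

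The number of all genes called was 3358, 3875, 8136, 898 and 2913 in the 4 comparisons and their difference. It was 6803, 6950, 12761, 2192 and 4911 with a pseudocount of 0.1, and 1030, 1018, 910, 428 and 1612 in the linear model. With single libraries left out it was 2738 to 4350, 2547 to 5499, 6390 to 9555, 597 to 3507 and 2091 to 4608. The share called higher fell from 66.1% to 34.0% in S3_C against S3_S, from 77.5% to 36.5% in S2 against S1, from 65.0% to 47.8% in S3_S against S1 and from 67.5% to 48.5% in S3_C against S2 after median-of-ratios scaling. It rose from 37.9% to 48.8% in the difference of the differences. FPKM without fragment numbers give no limit for the lowest values.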

Other observations

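Genes that the table annotates to secondary wall biogenesis, xylan biosynthesis or xylem development were listed after the table had been opened. Besides the 4 genes these were 31, of which 30 were tested in S3_C against S3_S. In limma 4 were called higher in S3_C and 0 lower, beside 7.88% of all genes, and the median log2 fold change was 0.20, beside 0.14. The 21 genes of the xylan term had a median of 0.05, and 8 of the 30 had a negative value. *TBL32*, of a family of wall acetyltransferases, was at 13.9, 12.8 and 16.6 FPKM in S3_C and 6.29, 12.4 and 11.4 FPKM in S3_S, and was called higher than in S1 both in S2 (by 1.12 on the log2 scale, with an adjusted p = 0.107 from limma) and in S3_S (by 1.003, with an adjusted p = 0.0677 from limma), but in neither after median-of-ratios scaling (0.65 and 0.72). *RAB7*, a small GTPase annotated to xylem development, was called higher in S3_S than in S1 by 1.42 (adjusted p = 0.0433 from limma). The level of *NCRK*, a receptor-like kinase gene with the same annotation, was 5.35 to 9.52 FPKM in S3_C, 2.71 to 4.57 FPKM in S3_S and 6.01 to 7.17 FPKM in S1.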
